A study of Homo sapiens with 8 samples.

Results

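The 545 antisense and divergent transcripts described here carry names of the kind given to non-coding RNAs. They were measured by RNA-seq in MDA-MB-231, a human line of triple-negative breast cancer, with and without EMD37. They were chosen by name and by level: they are the rows of the deposited normalized count table whose gene symbol ends in -AS or -DT, with or without digits after AS, and whose mean over the 8 libraries was 20 or more normalized counts. They carry 544 symbols, since DNAJC9-AS1 stands under 2 gene IDs, and they make up 545 of the 27682 genes of that table. Another 1104 genes with such a symbol had a lower mean and were left out. There were 4 groups: EMD37 at 12 h, vehicle at 12 h, EMD37 at 24 h and vehicle at 24 h. EMD37 was given at 0.5 µM and the vehicle was DMSO. All cells were grown in DMEM with 10% FBS, and each group held 2 libraries, lettered A and B. The labels name EMD37 by its code alone and do not say whether the libraries of a group came from separate cultures, so p-values here rest on the spread among libraries, which may be technical. The measured value that the members were selected on, the mean over all libraries, includes the EMD37 libraries: 29 members had a mean under 20 in the 4 vehicle libraries, and 18 of those 29 were called higher at 24 h, which the choice of members favoured.

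By the naming convention for human genes, -AS marks a non-coding transcript on the strand opposite to a coding gene that it overlaps, and -DT marks a transcript that starts near the start of a coding gene and runs the other way. Many promoters in mammalian cells fire in both directions, and most of the RNA made upstream of a coding gene is ended early and degraded by the nuclear exosome. Transcripts that carry a gene name of this kind are those stable enough to have been annotated, and the functions of most are unknown. The library kit did not mark the strand of the RNA, so where a transcript and another gene cover the same bases their reads cannot be told apart.

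Promoter sequences of 4 members follow, from the RefSeq table of promoters on build GRCh38.p14, each 250 bases before and 50 bases after the listed start, 5′ to 3′ on the transcript's strand. The first 3 are shown because their windows are shared with the coding gene of the same name, read on the other strand, and their values are set beside those of that gene further on. In these 3 the capitals mark the 50 bases from the transcript's start on. The windows of DNAJC3-DT and DNAJC3 shared 287 bases, those of HK2-DT and HK2 shared 239 and those of PRMT5-DT and PRMT5 shared 268. The last is that of DLGAP1-AS2, a member named below for its rise at 12 h. It was 1 of the 7 member promoters that held the letters of the amino acid response element TGATGNAA, and there the capitals mark these letters without the free base.
DNAJC3-DT, chr13:95676876-95677175, minus strand: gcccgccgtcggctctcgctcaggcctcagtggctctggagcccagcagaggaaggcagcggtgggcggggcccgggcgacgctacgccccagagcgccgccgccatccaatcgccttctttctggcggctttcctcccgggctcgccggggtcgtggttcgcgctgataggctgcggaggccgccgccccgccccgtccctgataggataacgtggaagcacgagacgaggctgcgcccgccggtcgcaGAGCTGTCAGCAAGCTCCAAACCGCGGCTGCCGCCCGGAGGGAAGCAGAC
HK2-DT, chr2:74833938-74834237, minus strand: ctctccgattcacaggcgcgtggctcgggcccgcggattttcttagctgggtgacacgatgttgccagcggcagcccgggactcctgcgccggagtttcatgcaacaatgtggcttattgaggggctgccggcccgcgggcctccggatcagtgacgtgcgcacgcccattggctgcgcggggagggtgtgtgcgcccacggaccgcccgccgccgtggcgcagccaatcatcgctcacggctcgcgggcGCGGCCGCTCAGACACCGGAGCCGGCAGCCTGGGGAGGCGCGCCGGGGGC
PRMT5-DT, chr14:22929359-22929658, plus strand: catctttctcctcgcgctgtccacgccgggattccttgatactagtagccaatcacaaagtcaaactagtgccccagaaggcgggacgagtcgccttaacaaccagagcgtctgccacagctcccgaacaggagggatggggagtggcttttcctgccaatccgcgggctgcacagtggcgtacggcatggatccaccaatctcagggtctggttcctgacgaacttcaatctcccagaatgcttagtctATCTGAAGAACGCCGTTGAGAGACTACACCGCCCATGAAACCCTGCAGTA
DLGAP1-AS2, chr18:3603487-3603786, plus strand: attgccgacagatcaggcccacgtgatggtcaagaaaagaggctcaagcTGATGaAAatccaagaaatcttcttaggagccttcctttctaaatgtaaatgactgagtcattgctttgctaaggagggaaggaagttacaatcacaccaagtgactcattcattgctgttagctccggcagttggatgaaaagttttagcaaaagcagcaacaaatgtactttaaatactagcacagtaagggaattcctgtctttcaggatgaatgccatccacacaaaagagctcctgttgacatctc
RefSeq listed starts for 413 of the 544 symbols. These starts can differ from those of the GENCODE 29 annotation, which gives the positions below. Of the 186 head-to-head pairs with both starts in the table, 118 had windows that shared bases, with a median of 213 shared bases. The promoters of head-to-head members had a median GC content of 67.7% and a median of 29 CG pairs in 300 bases. Those of the coding genes that members are named after had 65.7% and 26. Over 27305 promoters of the table the medians were 58.3% and 14, and members that overlap their coding gene further in had 57.7% and 15.

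The members fell into position classes in the GENCODE 29 annotation of GRCh38, in which all 545 gene IDs were found. In 239 the transcript lay on the opposite strand with its start within 1000 bases of the start of its namesake, the gene whose name it carries; these are called head-to-head here and had a median distance between starts of 223 bases. They included 131 of the 140 -DT members and 108 of the 405 -AS members. Another 293 overlapped the namesake on the opposite strand with starts further apart, 10 did not overlap it, and for 3 the namesake was not analysed here. Of the 545, 173 had no exonic base inside an exon of another gene, 372 had at least 1, and in 27 more than 50% of the exonic bases lay in exons of another gene. Only 89 had no exonic base in the span of another gene. The annotation types 4 of the 545 as protein-coding.

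Most members were present at low levels. Their mean normalized count had a median of 50.3 and reached from 20.03 to 4554, against a median of 450 (range 1.68 to 15813) for the 522 namesakes in the table. The members together took 0.502% to 0.575% of the reads in each library. On a scale of normalized counts per kilobase of exon, FGD5-AS1 stood at 888, OTUD6B-AS1 at 264, THUMPD3-AS1 at 241, OIP5-AS1 at 188 and PAX8-AS1 at 76.0. These were the 5 members of highest mean normalized count. Just inside the limit on the mean lay IL6ST-DT (20.0347) and SRP14-DT (20.0864), and just outside it AP1AR-DT (19.9970) and FMNL1-AS1 (19.9485).

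The deposited count table held 8994977 to 11437813 reads per library. Defining genes of the line were present in every library: VIM had 12151 to 19187 reads and CD44 8518 to 14851. Estrogen receptor ESR1 had 5 to 26 reads, ERBB2 27 to 54 and EPCAM 0 to 3, and the leukocyte genes PTPRC, CD3E and CD14 had at most 10. The 6 fibroblast and endothelial markers checked had at most 49 reads (PECAM1). Of 92 tested genes on a list of stress genes, 82 were called higher and 1 lower at 24 h, and of 92 division genes 2 were called higher and 81 lower. Gene lists were set with earlier results of these data known, so their counts describe the background to the members and are not independent evidence.

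At 24 h, EMD37 moved a large part of the antisense and divergent transcripts in both directions. Of the 545 members, 88 were called higher and 116 lower (37.4%), called meaning an adjusted p below 0.05 in the quasi-likelihood test of edgeR, with p-values adjusted by Benjamini-Hochberg over 17863 genes. This share stood near the background of 37.8% of all genes tested, and below the 44.4% of the 13668 genes whose mean was also 20 or more. Among the members, 44 (8.07%) were called higher and 47 (8.62%) lower by 2-fold or more, beside 6.9% and 4.6% of all genes and 5.79% and 4.34% of genes with a mean of 20 or more. Of those 44, 17 had a mean under 20 in the vehicle libraries. Among the 516 members with a vehicle mean of 20 or more, 27 (5.23%) were higher and 47 (9.11%) lower by 2-fold or more. A limit on the vehicle mean drops members that rose from low vehicle levels and keeps those that fell, so it favours lower calls. The background shares carry no such limit, and the differences from them were not tested. The median log2 fold change of the members was -0.07, against -0.02 over all genes tested. Lower calls were 21.3% of the members, beside 18.5% of all genes and 22.5% of genes with a mean of 20 or more, and higher calls were 16.1%, beside 19.3% and 21.9%. In bulk RNA, fewer cells of a kind and less RNA per cell cannot be told apart. With 1 of the EMD37 libraries at 24 h left out, 56 (without A) or 69 (without B) members were called higher and 83 or 74 lower, and 96 of the 204 calls held in each of the 8 fits that left out 1 library.

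Head-to-head members had 38 higher and 56 lower calls of 239 (39.3%), members overlapping further in had 48 and 58 of 293 (36.2%), and members with no overlap had 1 and 2 of 10 (30.0%) at 24 h. The -DT members had 21 higher and 34 lower of 140 (39.3%) and the -AS members 67 and 82 of 405 (36.8%). The 89 members with no exonic base in the span of another gene had 11 higher and 23 lower calls (38.2%). Reads in their exons cannot come from an overlapping annotated gene. The 173 with no exonic base in another gene's exons had 28 and 38 (38.2%). The 151 members with every exonic base in the span of another gene had 27 and 36 (41.7%), and the 27 with more than 50% of their exonic bases in exons of another gene had 3 and 5 (29.6%). Among the 27 members named after zinc finger genes, 3 were called higher and 3 lower (22.2%). The differences between classes were not tested.

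The largest rise at 24 h was that of PDE7B-AS1, on the strand opposite to the gene of a cyclic AMP phosphodiesterase. It had 721 and 636 normalized counts under EMD37, against 60.7 and 49.4 under vehicle, a log2 fold change of 3.61 ± 0.17 with edgeR adjusted p 1.96e-12 (errors of log2 fold changes are standard errors of the fit here and below, with 2 libraries per group). At 12 h it had 35.2 and 37.5 normalized counts under EMD37, against 41.7 and 31.2 under vehicle, and these groups overlapped. The rise at 24 h was much larger than that of PDE7B itself, which had 338 and 300.4 normalized counts under EMD37, against 195 and 225 under vehicle and a log2 fold change of 0.61 ± 0.15. SLC7A11-AS1, which overlaps the gene of the cystine transporter subunit xCT, had 391 and 391 normalized counts under EMD37, against 116 and 50.3 under vehicle at 12 h and 479 and 458 normalized counts under EMD37, against 64.5 and 45.1 under vehicle at 24 h. Both EMD37 groups lay well above both vehicle groups, and the log2 fold change was 2.28 ± 0.22 at 12 h (edgeR adjusted p 4.3e-07) and 3.08 ± 0.23 at 24 h (3.32e-09). SLC7A11 itself was higher by 0.97 ± 0.08 and 2.93 ± 0.09 on the log2 scale at 12 h and 24 h. Of the exonic bases of SLC7A11-AS1, 14.0% lay in exons of SLC7A11 and 59.7% in its span, where reads of both genes cannot be told apart. For PDE7B-AS1 and PDE7B these shares were 6.86% and 96.2%. The part of such reads in the rises was not tested.

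Most of the other members that rose steeply at 24 h lay inside the span of the gene they are named after. Of those below, CYP1B1-AS1 overlapped CYP1B1 only in part and IL6ST-DT did not overlap IL6ST. All exonic bases of IL6ST-DT (100%) lay in the span of a gene other than IL6ST, though 0% in exons of another gene. CADM1-AS1, inside the gene of a cell adhesion molecule and with no exonic base in its exons, had 84.5 and 96.8 normalized counts under EMD37, against 12.3 and 14.0 under vehicle (log2 fold change 2.78 ± 0.28), while CADM1 rose by 1.46 ± 0.09. DLGAP1-AS1 had 112 and 102 normalized counts under EMD37, against 13.3 and 20.4 under vehicle (log2 fold change 2.67 ± 0.26), and its neighbour DLGAP1-AS2 had 238 and 256 normalized counts under EMD37, against 66.4 and 62.3 under vehicle (log2 fold change 1.93 ± 0.18). Their namesake DLGAP1, a scaffold gene of neuronal synapses, had at most 7.49 normalized counts in any library and was not tested. CYP1B1-AS1, beside a cytochrome P450 gene, rose by 2.12 ± 0.31 and BACH1-AS1, inside the gene of a repressor of oxidative stress genes, by 2.09 ± 0.36 on the log2 scale; CYP1B1 and BACH1 rose by 1.77 ± 0.09 and 1.49 ± 0.09. ARHGEF2-AS2, opposite a guanine nucleotide exchange factor gene, had 148 and 154 normalized counts under EMD37, against 36.1 and 38.7 under vehicle (log2 fold change 2.01 ± 0.20). IL6ST-DT, which starts beside the gene of the shared receptor subunit gp130, had 47.1 and 35.3 normalized counts under EMD37, against 10.4 and 8.60 under vehicle (log2 fold change 2.09 ± 0.37). CADM1-AS1, DLGAP1-AS1, CYP1B1-AS1, BACH1-AS1 and IL6ST-DT had means under 20 in the vehicle libraries, 10.9 for IL6ST-DT, and passed the limit through their EMD37 libraries, so that neither the direction of their rises nor the separation of their groups is independent of how they were chosen. The calls of DLGAP1-AS2 and ARHGEF2-AS2, with higher vehicle means, held at 24 h in all 8 fits that left out 1 library. For BACH1-AS1 and IL6ST-DT the log2 difference was 1.38 in both when 10 was added to the normalized counts before taking logs, as low counts weigh less there.

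**Figure D1:**
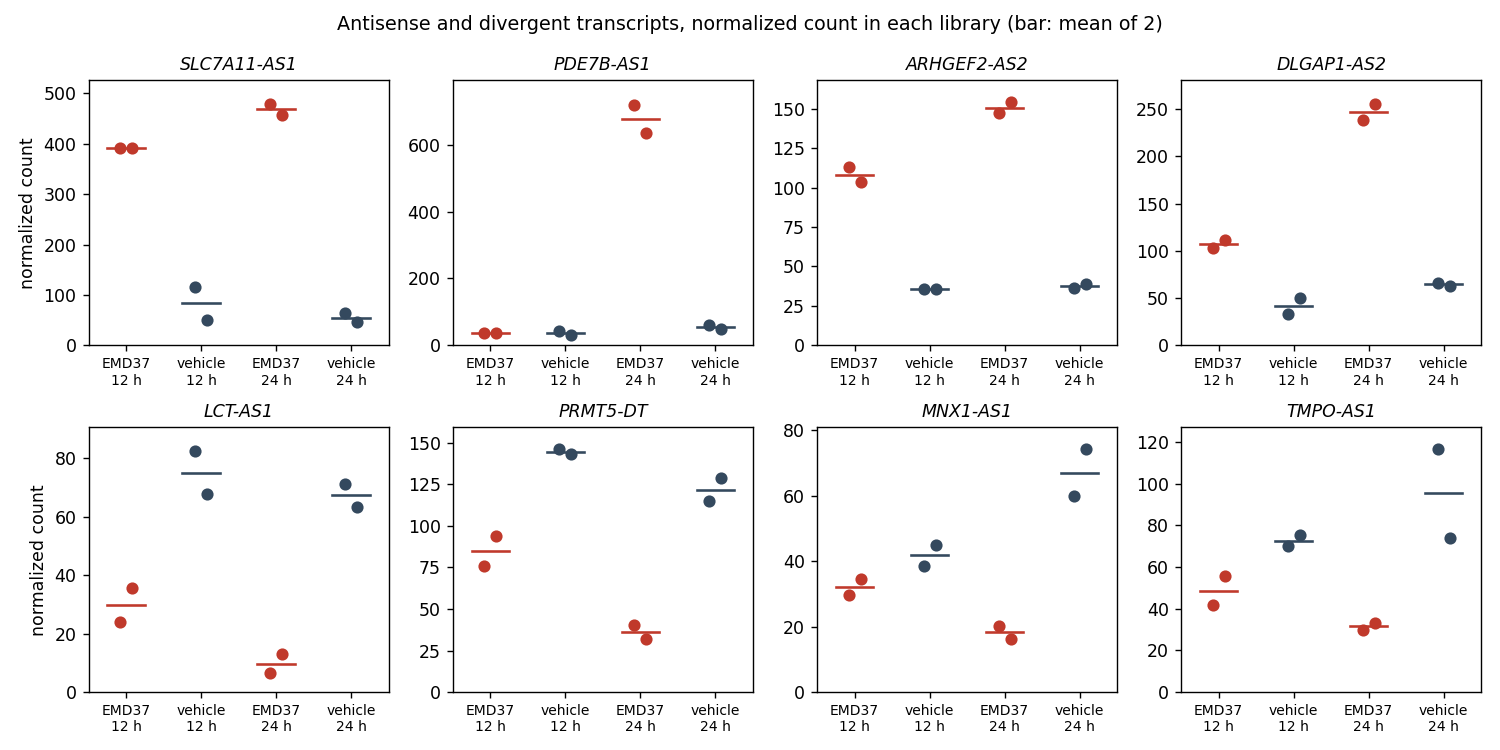
Normalized count (y axis, linear from 0) of 8 members in each library, by group on the x axis, with EMD37 in red, vehicle in dark blue and a bar at the mean of the 2 libraries. PDE7B-AS1 is high in the EMD37 libraries of 24 h alone (721 and 636), SLC7A11-AS1 in the EMD37 libraries of both times, and LCT-AS1, PRMT5-DT, MNX1-AS1 and TMPO-AS1 are lowest in the EMD37 libraries of 24 h.

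The steepest fall at 24 h was that of LCT-AS1, opposite the lactase gene, with 6.42 and 13.1 normalized counts under EMD37, against 71.2 and 63.4 under vehicle (log2 fold change -2.76 ± 0.33, edgeR adjusted p 1.86e-06). LCT itself was not analysed here. At 12 h LCT-AS1 had 24.1 and 35.5 normalized counts under EMD37, against 82.4 and 67.6 under vehicle (log2 fold change -1.32 ± 0.26, adjusted p 0.00262), a call that was lost without EMD37 library A of 12 h (adjusted p 0.0942). The EMD37 libraries lay below the vehicle libraries at both times.

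The next 7 falls at 24 h, in order of size, were MNX1-AS1, PRMT5-DT, HCCS-DT, SERTAD4-AS1, GAS6-DT, SH3TC2-DT and TMPO-AS1, and all but SERTAD4-AS1 are head-to-head with their coding gene. MNX1-AS1, beside a homeobox gene, had 20.3 and 16.1 normalized counts under EMD37, against 59.8 and 74.2 under vehicle (log2 fold change -1.87 ± 0.28), and MNX1 was not called (-0.37, adjusted p 0.467). PRMT5-DT, beside the gene of an arginine methyltransferase, had 40.6 and 32.3 normalized counts under EMD37, against 115 and 129 under vehicle (log2 fold change -1.74 ± 0.21), and PRMT5 was not called (-0.15 ± 0.10, adjusted p 0.258). HCCS-DT, beside the gene of the enzyme that attaches heme to cytochrome c, had 16.0 and 11.1 normalized counts under EMD37, against 41.7 and 48.4 under vehicle (log2 fold change -1.73 ± 0.32), with HCCS not called (0.02 ± 0.10). In all 3 the EMD37 libraries of 24 h lay below the vehicle libraries, and none of the 3 coding genes was called at 24 h. Of the exonic bases of PRMT5-DT, 80.4% lay in the span of another gene and 0% in that of PRMT5. MNX1-AS1 and HCCS-DT had 0% in the span of another gene. The part of reads of an overlapping gene in the values of PRMT5-DT was not tested.

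In the other 4 the coding gene was also called lower. SERTAD4-AS1 had 32.1 and 47.4 normalized counts under EMD37, against 139 and 121 under vehicle (log2 fold change -1.71 ± 0.23), against -1.42 ± 0.11 for SERTAD4. GAS6-DT fell by 1.67 ± 0.30 (SE) on the log2 scale and GAS6, the ligand of the receptor kinase AXL, had a log2 fold change of -0.54 ± 0.20. SH3TC2-DT had 10.7 and 20.2 normalized counts under EMD37, against 42.7 and 53.7 under vehicle (log2 fold change -1.62 ± 0.31), and SH3TC2, whose product acts in endosome recycling, had -2.04 ± 0.20. TMPO-AS1, beside the gene of lamina-associated polypeptide 2, had 29.9 and 33.3 normalized counts under EMD37, against 117 and 74.2 under vehicle (log2 fold change -1.60 ± 0.26), with -1.30 ± 0.18 for TMPO. All of these falls at 24 h were called in each fit that left out 1 library.

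At 12 h far fewer members were called. Of the 545, 21 were higher and 12 lower (6.06%), beside a background of 7.53% of all genes tested and 9.41% of the genes with a mean of 20 or more. Higher calls were 3.85% of the members, beside 4.78% of all genes and 5.88% of genes with a mean of 20 or more, and lower calls 2.2%, beside 2.75% and 3.53%. By 2-fold or more, 9 (1.65%) were higher and 2 (0.367%) lower, beside 1.55% and 0.213% of all genes and 1.66% and 0.205% of genes with a mean of 20 or more. These counts depended on single libraries: without EMD37 library A or B of 12 h they were 9 and 3 or 9 and 2, without vehicle library A or B of 12 h 10 and 3 or 13 and 5, and without vehicle library A or B of 24 h 34 and 25 in both. Of the 33 calls, 7 held in all 8 such fits. With the 4 libraries of 12 h alone in the fit, 34 were called higher and 25 lower.

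The largest rises at 12 h were SLC7A11-AS1, described above, and ARHGEF2-AS2, DNAJC3-DT, CARS1-AS1 and DLGAP1-AS2. ARHGEF2-AS2 had 113 and 103 normalized counts under EMD37, against 35.5 and 35.5 under vehicle (log2 fold change 1.62 ± 0.20, edgeR adjusted p 1.38e-05), and ARHGEF2 had a log2 fold change of 0.89 ± 0.09. DLGAP1-AS2 had 103 and 111 normalized counts under EMD37, against 33.4 and 50.3 under vehicle (log2 fold change 1.35 ± 0.21, adjusted p 0.000177). In both, the EMD37 libraries of 12 h lay above all 4 vehicle libraries. CARS1-AS1, opposite the gene of cytosolic cysteinyl-tRNA synthetase, had 46.3 and 45.6 normalized counts under EMD37, against 10.4 and 21.7 under vehicle (log2 fold change 1.49 ± 0.33, adjusted p 0.00642), and also passed the limit on the mean through EMD37 libraries, but the call was lost without EMD37 library A or B or vehicle library A of 12 h (adjusted p 0.0777, 0.0686 and 0.124). At 24 h it had a log2 fold change of 1.16 ± 0.38 (adjusted p 0.0200), lost without EMD37 library A or B or vehicle library A of 24 h (0.0510, 0.0974 and 0.151) and under DESeq2 (0.0834).

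The largest falls at 12 h after LCT-AS1 were NEXN-AS1 (-1.09 ± 0.31), TMCC1-DT (-0.78 ± 0.17), PRMT5-DT (-0.76 ± 0.18) and FMNL1-DT (-0.67 ± 0.20), all as log2 fold changes. TMCC1-DT, beside the gene of an endoplasmic reticulum membrane protein, had 86.2 and 82.1 normalized counts under EMD37, against 154 and 138 under vehicle, and its call was lost without EMD37 library A or B or vehicle library A of 12 h (edgeR adjusted p 0.0577, 0.0871 and 0.0797); its call at 24 h was lost without EMD37 library A of 24 h (0.0746). PRMT5-DT had 76.0 and 94.2 normalized counts under EMD37, against 146 and 143 under vehicle, and its call at 12 h was lost without EMD37 library A or vehicle library A or B of 12 h (0.199, 0.0825 and 0.0801). For FMNL1-DT, beside a formin gene, the calls at 12 h (adjusted p 0.0432) and 24 h (0.0477) stood at the threshold: the first was lost in 6 of the 8 fits without 1 library, all but those without a vehicle library of 24 h, and the second in all 8. The EMD37 libraries of FMNL1-DT nevertheless lay below the vehicle libraries at both times.

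Over both times, 25 members were called in the same direction at 12 h and 24 h and 2 in opposite directions, while 6 were called at 12 h alone, 177 at 24 h alone and 335 at neither. The interaction term, which tests whether the EMD37 effect differed between the times, called 31 members higher and 36 lower at 24 h than at 12 h (12.3%), beside 13.7% of all genes and 17.1% of genes with a mean of 20 or more. Of these 67 calls, 17 held in all 8 fits that left out 1 library, and the fits without an EMD37 or vehicle library of 12 h or an EMD37 library of 24 h called 13 to 20 higher and 15 to 21 lower. Between the vehicle groups, 19 members were called higher and 7 lower at 24 h than at 12 h (4.77%), near the 5.09% of all genes tested and the 6.54% of genes with a mean of 20 or more. Only 1 of those 26 calls held in every such fit, and the counts reached from 1 higher and 1 lower without vehicle library A of 12 h to 34 and 14 without vehicle library A of 24 h.

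PDE7B-AS1 had the largest interaction (3.59 ± 0.30 SE on the log2 scale, edgeR adjusted p 1.62e-07). HECW2-AS1, inside the gene of a ubiquitin ligase and with no exonic base in its exons, had 17.6 and 16.2 normalized counts under EMD37, against 26.1 and 29.5 under vehicle at 12 h and 57.8 and 50.4 normalized counts under EMD37, against 19.0 and 10.7 under vehicle at 24 h. Its EMD37 libraries lay below the vehicle libraries at 12 h and above them at 24 h, and its interaction was 2.53 ± 0.46 (adjusted p 0.000895). HECW2 rose at 24 h by 1.13 ± 0.18 and was not called at 12 h (0.45 ± 0.17, adjusted p 0.128). NEXN-AS1, opposite the gene of an actin-binding protein, had 14.8 and 19.3 normalized counts under EMD37, against 42.8 and 31.2 under vehicle at 12 h and 75.9 and 65.5 normalized counts under EMD37, against 40.8 and 35.5 under vehicle at 24 h. It was called lower at 12 h (log2 fold change -1.09 ± 0.31) and higher at 24 h (0.88 ± 0.25). The interaction of NEXN-AS1 held in every fit without 1 library, but its call at 12 h was lost without EMD37 library A or B or vehicle library A of 12 h (adjusted p 0.261, 0.108 and 0.278), its call at 24 h without EMD37 library A of 24 h (0.0720), and both under DESeq2 (0.0947 and 0.0603).

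Among members whose EMD37 effect turned lower with time, DIAPH3-AS1, inside a formin gene, had 31.5 and 18.2 normalized counts under EMD37, against 25.04 and 18.2 under vehicle at 12 h and 13.9 and 10.1 normalized counts under EMD37, against 37.0 and 35.5 under vehicle at 24 h. The groups overlapped at 12 h and the EMD37 libraries lay below at 24 h (log2 fold change -1.60 ± 0.37); the interaction of -1.84 (edgeR adjusted p 0.0207) was lost without EMD37 library A or vehicle library B of 12 h or EMD37 library B of 24 h (0.166, 0.0814 and 0.103). HCCS-DT had 40.8 and 33.4 normalized counts under EMD37, against 42.8 and 36.4 under vehicle at 12 h, with overlapping groups, and its interaction of -1.66 was lost without EMD37 library A of 12 h or B of 24 h (adjusted p 0.0664 and 0.0827).

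**Figure D2:**
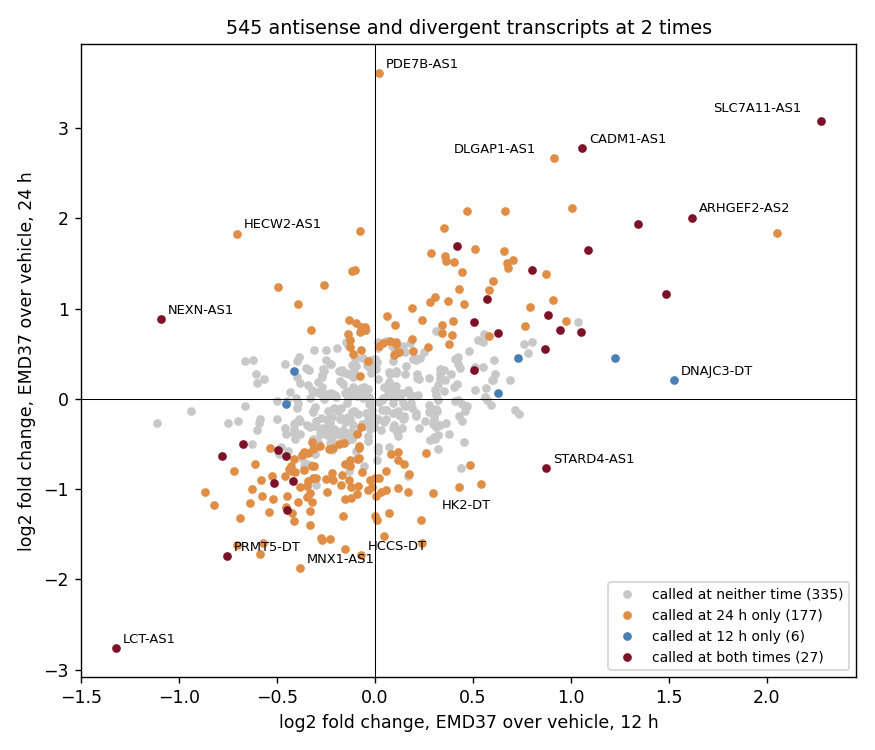
Log2 fold change of EMD37 over vehicle at 12 h (x axis) and 24 h (y axis) for the 545 members, 1 point each, coloured by the time at which the member was called. The points spread far more along the 24 h axis, SLC7A11-AS1 stands high on both, DNAJC3-DT stands out on the 12 h axis alone, and NEXN-AS1 and STARD4-AS1 are the 2 members called in opposite directions.

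Of the 545 members, 541 carry the name of a coding gene, and in 510 pairs both genes were tested. At 24 h the transcript and its coding gene were called in the same direction in 96 pairs, both higher in 50 and both lower in 46, and in opposite directions in 15. The 50 include members with a vehicle mean under 20: 11 whose coding gene rose by 2-fold or more and 1 whose coding gene rose by less. These passed the limit on the mean through their EMD37 libraries, so their direction was favoured by the choice of members. Members of this kind also enter the coefficients below. In 77 pairs the transcript alone was called, in 133 the coding gene alone and in 189 neither. The coding genes were called in 47.8% of these pairs. Pearson's r between the log2 fold changes of transcript and coding gene was 0.530 and Spearman's coefficient 0.537 over the 510 pairs, which share their 4 libraries and, where exons overlap, possibly reads. At 12 h, 12 pairs were called in the same direction, 11 of them higher, and 0 in opposite directions, with r 0.393 and Spearman's coefficient 0.317. That count of 0 comes from edgeR's test, in which 97 of the 545 members had an unadjusted p below 0.05 at 12 h; DESeq2 also gave 0, and the edgeR fit on the libraries of 12 h alone gave 2. Without 1 library the same-direction pairs of 12 h numbered 3 to 9, except 22 without vehicle library A or B of 24 h.

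The correlation between transcript and coding gene at 24 h was higher in pairs that overlap further in than in head-to-head pairs. Both classes include members with a vehicle mean under 20, whose rises were favoured by the choice of members. In the 266 overlapping pairs r was 0.613, with 62 pairs called in the same direction and 7 in opposite directions. In the 235 head-to-head pairs r was 0.379, with 32 and 8. In the 63 overlapping pairs whose transcript had no exonic base in an exon of another gene r was 0.639, with 17 pairs called in the same direction and 3 in opposite directions. Where their exonic bases lie in the span of another gene, unspliced RNA of that gene would be counted too. The share in such a span differed between them, with 100% for CADM1-AS1, 74.2% for PARD6G-AS1 and 25.7% for SLC38A2-AS1. The part of such RNA was not tested. In the 78 head-to-head pairs with no exonic base in the span of any other gene r was 0.496, with 13 and 2 pairs. The difference between the classes was not tested, and the same-direction count over all pairs fell to 56 or 59 without EMD37 library A or B of 24 h.

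The calls of the transcripts at 24 h were counted by the change of the coding gene. Of 32 transcripts whose coding gene rose by 2-fold or more at 24 h, 22 were called higher, 1 lower and 9 were not called. Of these 22 calls, 11 were of members with a vehicle mean under 20, which passed the limit on the mean through their EMD37 libraries, so that their direction was favoured by the choice of members. Among the 21 with a vehicle mean of 20 or more, 11 were called higher and 1 lower. Of 102 whose coding gene rose by less, 28 were called higher and 10 lower. Of 19 whose coding gene fell by 2-fold or more, 14 were called lower, 0 higher and 5 were not called, and of 91 whose coding gene fell by less, 32 were lower and 4 higher. Where the coding gene was not called (266 pairs), 28 transcripts were higher and 49 lower. The median log2 fold change of the transcripts was 1.15, 0.20, -0.36, -0.90 and -0.13 in these 5 classes, from coding genes that rose most to those that fell most and then those not called. At 12 h, 3 of 13 transcripts were called higher where the coding gene rose by 2-fold or more, and 8 of 26 where it rose by less.

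**Figure D3:**
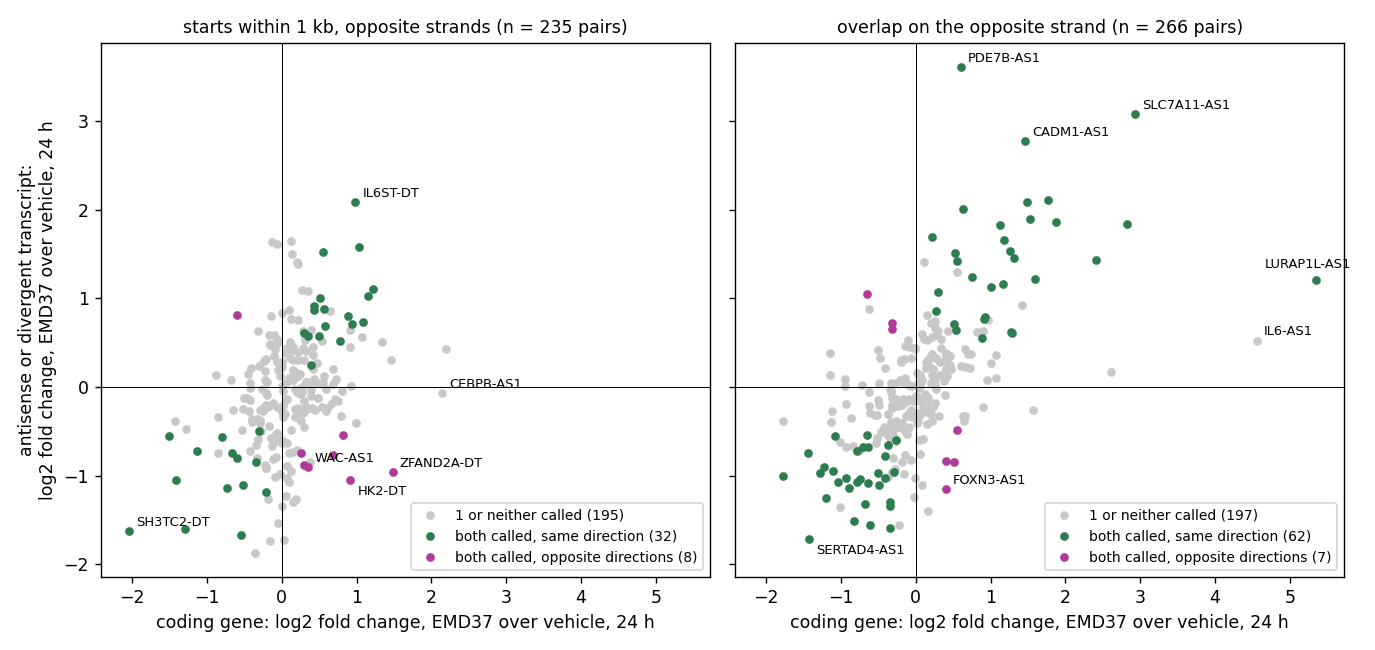
Log2 fold change of EMD37 over vehicle at 24 h for the coding gene (x axis) and its antisense or divergent transcript (y axis), 1 point per pair, with 235 head-to-head pairs on the left and 266 overlapping pairs on the right. Pairs called in the same direction (green, 32 and 62) lie in the lower left and upper right, the pairs called in opposite directions (purple, 8 and 7) lie mostly at the lower right, and the coding genes IL6, LURAP1L and CEBPB moved far more than the transcripts named after them.

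Some coding genes that rose steeply had transcripts that were not called or rose less. IL6-AS1, CEBPB-AS1, LURAP1L-AS1, OSER1-DT, SLC38A2-AS1, EIF2AK3-DT, NR2F1-AS1 and ZFAND2A-DT were chosen after their values were seen. IL6-AS1 had 49.2 and 55.4 normalized counts under EMD37, against 37.0 and 35.5 under vehicle and was not called (log2 fold change 0.52 ± 0.25, edgeR adjusted p 0.101), while the cytokine gene IL6 had 2212 and 2406 normalized counts under EMD37, against 103 and 91.4 under vehicle (4.56 ± 0.12). CEBPB-AS1 had 17.1 and 21.2 normalized counts under EMD37, against 21.8 and 18.3 under vehicle with overlapping groups (-0.07 ± 0.36, adjusted p 0.894), while CEBPB, a bZIP transcription factor gene, rose by 2.14 ± 0.13. Both coding genes lay in separate ranges in the 2 groups, by far more than the spread between libraries. LURAP1L-AS1 had 108 and 111 normalized counts under EMD37, against 49.3 and 45.1 under vehicle and rose by 1.20 ± 0.20 (adjusted p 8.34e-05), in all 8 fits without 1 library, against 5.35 ± 0.19 for LURAP1L. OSER1-DT, with no exonic base in another gene, had 282 and 288 normalized counts under EMD37, against 135 and 130.0 under vehicle and rose by 1.10 ± 0.15, close to the 1.22 ± 0.09 of OSER1.

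SLC38A2-AS1, opposite the gene of an amino acid transporter, and EIF2AK3-DT had vehicle means under 20. SLC38A2-AS1 had 57.8 and 27.2 normalized counts under EMD37, against 2.85 and 21.5 under vehicle (log2 fold change 1.84 ± 0.52, edgeR adjusted p 0.00886). Its 2 libraries per group lay far apart, and without EMD37 library A or vehicle library A of 24 h the value was 1.19 or 0.92 and the call was lost (adjusted p 0.187 and 0.0724), while without vehicle library B it was 3.83 (3.05e-08). EIF2AK3-DT, beside the gene of the stress kinase PERK, had 25.7 and 46.4 normalized counts under EMD37, against 14.2 and 21.5 under vehicle (log2 fold change 1.02 ± 0.38, adjusted p 0.0391), a call lost without vehicle library B of 12 h, EMD37 library B of 24 h or vehicle library A of 24 h (0.0526, 0.433 and 0.189; without EMD37 library B the value was 0.54). NR2F1-AS1, beside a nuclear receptor gene, had 355 and 361 normalized counts under EMD37, against 748 and 657 under vehicle and fell with NR2F1 (log2 fold changes -0.98 ± 0.12 and -1.29 ± 0.16), in all 8 fits without 1 library.

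Of the 5 members named after a gene of the stress list, 3 were called higher at 12 h, beside 7.53% of all genes tested called in either direction. At 24 h 1 was called higher and 1 lower (40%), near the 37.8% of all genes tested. SLC7A11-AS1 rose at both times, as given above. DNAJC3-DT starts 214 bases from DNAJC3, the gene of a co-chaperone of the endoplasmic reticulum that restrains the kinase PERK, and has no exonic base in the span of another gene. It had 151 and 136 normalized counts under EMD37, against 50.1 and 50.3 under vehicle at 12 h and 90.9 and 111 normalized counts under EMD37, against 88.2 and 86.0 under vehicle at 24 h. The EMD37 libraries stood far above the vehicle libraries at 12 h (log2 fold change 1.53 ± 0.19, edgeR adjusted p 1.2e-05) and only just above them at 24 h (0.21 ± 0.18, adjusted p 0.402), and the interaction was -1.32 ± 0.26 (adjusted p 0.00210). DNAJC3 was higher at both times, by 1.32 ± 0.08 and 0.68 ± 0.08. The vehicle libraries of DNAJC3-DT also differed, with a log2 fold change of 0.81 at 24 h against 12 h, a call lost without any 1 of the 4 libraries of 12 h (adjusted p 0.0524 and 0.0522 without EMD37 A and B, 0.180 and 0.129 without vehicle A and B).

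STARD4-AS1 starts 364 bases from STARD4, the gene of a cholesterol transfer protein, and had 76.0 and 87.1 normalized counts under EMD37, against 52.2 and 38.1 under vehicle at 12 h and 25.7 and 30.2 normalized counts under EMD37, against 39.9 and 55.9 under vehicle at 24 h. All of its exonic bases (100%) lay in the span of another gene, but only 5.01% in that of STARD4. In exons of another gene lay 17.9%, and in those of STARD4 2.20%. The part of reads of overlapping genes in its values was not tested. STARD4-AS1 was above vehicle at 12 h (log2 fold change 0.87 ± 0.23, edgeR adjusted p 0.0262) and below it at 24 h (-0.77 ± 0.28, 0.0367), while STARD4 was higher at both times (1.77 ± 0.09 and 0.68 ± 0.09). Its interaction of -1.64 (adjusted p 0.00482) held without any 1 library, but the call at 12 h was lost without EMD37 library A or B or vehicle library B of 12 h (0.104, 0.238 and 0.267), the call at 24 h without EMD37 library A or B or vehicle library B of 24 h (0.171, 0.0846 and 0.246), and both under DESeq2 (0.108 and 0.124). Of the 4 members named after division genes, 1 was called higher and 1, SMC2-DT, lower at 24 h, beside 37.8% of all genes tested. KIF23-AS1 and MAD2L1-DT were not called. SMC2-DT, near the gene of a condensin subunit, had 21.4 and 19.2 normalized counts under EMD37, against 38.9 and 35.5 under vehicle (log2 fold change -0.88 ± 0.30, adjusted p 0.0255), beside -0.48 ± 0.09 for SMC2. That call was lost without EMD37 library A or B or vehicle library A of 24 h (0.0655, 0.132 and 0.0913) and under DESeq2 (0.152).

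Among the 15 pairs called in opposite directions at 24 h, the transcript was lower and the coding gene higher in 11. HK2-DT, which shares its promoter window with the hexokinase gene HK2, had 39.6 and 49.4 normalized counts under EMD37, against 86.3 and 97.8 under vehicle (log2 fold change -1.05 ± 0.21, edgeR adjusted p 0.000662). HK2 had 2020.2 and 2102 normalized counts under EMD37, against 1078 and 1103 under vehicle (0.92 ± 0.08, adjusted p 2.75e-08). In the sequence printed above the 2 starts lie 140 bases apart, on opposite strands, and the groups separate in opposite directions. At 12 h HK2-DT was not called (0.29 ± 0.20) while HK2 was higher (0.59 ± 0.08), and the interaction of HK2-DT was -1.34 ± 0.30 (adjusted p 0.00460). Both results held in all 8 fits without 1 library.

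WAC-AS1, beside the gene of an adaptor in histone H2B ubiquitination, had 248 and 199.6 normalized counts under EMD37, against 424 and 409 under vehicle (log2 fold change -0.90 ± 0.13, edgeR adjusted p 1.93e-05), against a rise of 0.35 ± 0.08 for WAC. FOXN3-AS1, inside a forkhead gene, fell by 1.15 ± 0.28 (SE) while FOXN3 rose by 0.41 ± 0.09; its call was lost without EMD37 library B of 24 h (adjusted p 0.0719). KDM4A-AS1, which overlaps the gene of a histone demethylase, fell by 0.85 ± 0.21 while KDM4A rose by 0.51 ± 0.15. Of its exonic bases, 83.7% lay in the span of KDM4A and 24.0% in its exons. Without EMD37 library A of 24 h the log2 fold change of KDM4A-AS1 was -0.71 and its call was lost. ZFAND2A-DT, beside a gene of a proteasome-associated protein induced by arsenite, fell by 0.96 ± 0.33 while ZFAND2A rose by 1.48 ± 0.14; its call was lost without EMD37 library A or vehicle library B of 24 h (0.169 and 0.124).

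In the other 4 pairs the transcript was higher and the coding gene lower. PARD6G-AS1, opposite a cell polarity gene, had 71.7 and 55.4 normalized counts under EMD37, against 19.9 and 41.9 under vehicle (log2 fold change 1.05 ± 0.30, edgeR adjusted p 0.00879), against -0.65 ± 0.16 for PARD6G. Its value rested on the vehicle libraries: without vehicle library A of 24 h it was 0.55 (adjusted p 0.164), without vehicle library B 1.66 (2.4e-05), and without EMD37 library A the call was also lost (0.0966). Over all pairs, the count in opposite directions was 5 without either EMD37 library of 24 h.

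**Figure D4:**
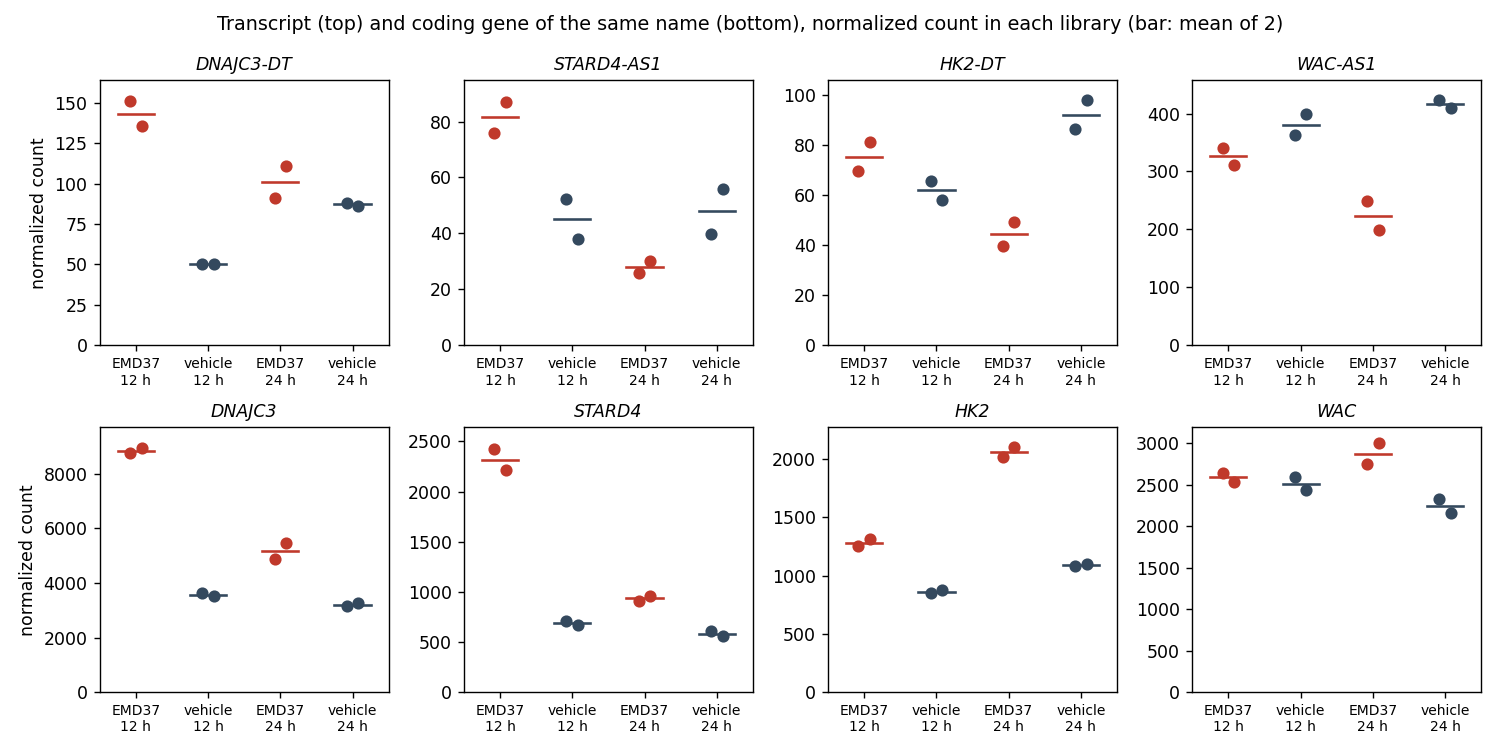
Normalized count (y axes, linear from 0) in each library for 4 transcripts (top) and the coding genes they are named after (bottom), by group on the x axis, with EMD37 in red, vehicle in dark blue and a bar at the mean of the 2 libraries. DNAJC3-DT is raised mainly at 12 h while DNAJC3 is raised at both times, STARD4-AS1 lies above vehicle at 12 h and below it at 24 h, and at 24 h HK2-DT and HK2, and WAC-AS1 and WAC, separate in opposite directions.

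Of the 5 most abundant members, PAX8-AS1 and OTUD6B-AS1 were called higher at 24 h and the other 3 were not called. FGD5-AS1 had 4442 and 4855 normalized counts under EMD37, against 4794 and 4393 under vehicle at 24 h, with overlapping groups and a log2 fold change of 0.01 ± 0.08, and OIP5-AS1, a widely expressed regulatory RNA, had 0.02 ± 0.08; at 12 h the values were -0.06 ± 0.08 and -0.03 ± 0.08. THUMPD3-AS1 was not called at either time (0.17 ± 0.09 and 0.10 ± 0.09). OTUD6B-AS1 rose by 0.25 ± 0.08 at 24 h (edgeR adjusted p 0.0161), a call lost without EMD37 library B or vehicle library A or B of 24 h (0.111, 0.0627 and 0.0879) and with no filter on low counts (0.0542). PAX8-AS1, which overlaps the gene of a paired-box factor, had 2051 and 2104 normalized counts under EMD37, against 1236 and 1156 under vehicle at 24 h and rose by 0.79 ± 0.08 (adjusted p 1.93e-07), with an interaction of 0.84 ± 0.12 (5.3e-05). All EMD37 libraries of 24 h lay above all other libraries for PAX8-AS1, and both calls held without any 1 library. PAX8 itself, at 46.2 to 113 normalized counts over the libraries, rose by 0.92 ± 0.26.

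Genes of the machinery that ends and degrades antisense and divergent RNA were read from a list of 50, covering the nuclear exosome and its adaptors, the Integrator complex and cleavage factors. At 24 h, 8 were called higher and 15 lower (46.0%), all by less than 2-fold, near the 44.4% of genes with a mean of 20 or more and above the 37.8% of all genes tested. At 12 h 2 were higher and 0 lower by edgeR, beside 7.53% of all genes called, with 9 of the 50 at an unadjusted p below 0.05. PCF11, a termination factor, rose by 0.66 ± 0.08, ZFC3H1, which brings polyadenylated nuclear RNA to the exosome, by 0.75 ± 0.10, and ZCCHC8, of the exosome adaptor complex NEXT, by 0.57 ± 0.09 on the log2 scale. The exosome subunits EXOSC9 (-0.77 ± 0.10) and EXOSC2 (-0.55 ± 0.09) and the Integrator subunit INTS8 (-0.78 ± 0.13) were called lower. These 6 had the smallest p-values in each direction, and their part in the levels of the members was not tested.

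Motifs of stress and division factors were searched on both strands in the promoter windows, as letters alone. Of 489 listed promoters of members, 7 (1.43%) held the amino acid response element TGATGNAA, beside 3.62% of all 35116 promoters of the table. The cyclic AMP element TGACGTCA, which reads alike on both strands, was in 14 (2.86%), beside 1.85%. The E2F forms TTTCCCGC and TTTGGCGC were in 10 (2.04%) and 1 (0.204%), beside 1.63% and 0.652%. The endoplasmic reticulum stress elements ERSE and ERSE-II, which share their last letters, and the heat shock element HSE were in 0 member promoters, beside 0.0769%, 0.0541% and 0.49%. In DLGAP1-AS2 the amino acid response element lay at bases 50 to 57 of the window printed above. The GENCODE 29 annotation starts this transcript at base 3603000 of chromosome 18, so the printed window lies past that start, inside the annotated gene. In LURAP1L-AS1 the same letters stood at bases 84 to 91 and 212 to 219. IKBKE-AS1, IQCJ-SCHIP1-AS1 and GOT1-DT also held them, and the changes of these transcripts are not given here. Whether any of the motifs acts in these cells was not tested. None of these motifs was in the printed windows of DNAJC3-DT, HK2-DT or PRMT5-DT.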

How the data were processed

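Total RNA (1 µg per sample, Direct-zol extraction) of 8 MDA-MB-231 samples was made into libraries with the unstranded TruSeq V2 kit, per the labels' protocols. The submitters' processing notes name FastQC, STAR, DESeq2 and hg38; their versions, the counting program and its settings are not given in the sources used here. Deposited by the authors were read counts per gene and normalized counts (signal), which are those counts over a size factor. The count table used here ends within a line and holds 36715 genes. For 6912 IDs found only in the normalized table, the deposited signal times the size factor gave whole numbers for 55296 of 55296 values (100%, within 0.01). These recovered reads joined the counts, so 275 members came from the count table and 270 from recovered reads.

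The main test was edgeR 4.0.16 (R 4.3.3) on the counts: TMM factors, filterByExpr at a minimum count of 10, 1 mean per group, quasi-likelihood F tests of EMD37 against vehicle at 12 h and 24 h, their interaction, and vehicle at 24 h against 12 h, with Benjamini-Hochberg adjustment over 17863 genes and a threshold of 0.05. It called 1345 genes at 12 h and 6747 at 24 h, and was tested on simulated data. DESeq2 1.42.0, limma 3.58.1 on log2(normalized count + 1 or + 10), other factors, filters, limits on the mean and sets of libraries were alternatives. Symbols came from a gene name table (27588 of 27682 IDs matched), positions from GENCODE 29 on GRCh38, where 299 of the 545 members have the same name, and promoters from RefSeq on GRCh38.p14. Named members are the largest changes, the highest means, pairs called in opposite directions, those named after stress or division genes and those next to the limit on the mean; some are not reported here. Members and gene lists were chosen with earlier results of these data known. Correlations across pairs are across genes, which are not independent replicates, and carry no p. The labels do not say that the letters A and B pair libraries: over 5821 genes, A minus B in the EMD37 and the vehicle group correlated at -0.02 at 12 h and -0.58 at 24 h, and A minus B in the vehicle groups of 24 h and 12 h at 0.58.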

Additional observations from a re-analysis of the deposited data

Results flagged for a closer look

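In 17 of the named members the EMD37 effect differed between 24 h and 12 h by edgeR's interaction test, given here as log2 differences with adjusted p. The effect was higher at 24 h for PDE7B-AS1 (3.59, 1.62e-07), HECW2-AS1 (2.53, 0.000895), NEXN-AS1 (1.98, 0.00208), DLGAP1-AS1 (1.76, 0.0083), CADM1-AS1 (1.72, 0.00996) and PAX8-AS1 (0.84, 5.3e-05). It was lower at 24 h for DIAPH3-AS1 (-1.84, 0.0207), HCCS-DT (-1.66, 0.012), STARD4-AS1 (-1.64, 0.00482), GAS6-DT (-1.52, 0.0188), MNX1-AS1 (-1.49, 0.0143), LCT-AS1 (-1.44, 0.0376), HK2-DT (-1.34, 0.0046), DNAJC3-DT (-1.32, 0.0021), SERTAD4-AS1 (-1.13, 0.0194), PRMT5-DT (-0.99, 0.0235) and WAC-AS1 (-0.69, 0.0151).

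With 1 library left out at a time, the interaction stayed called in every fit for PDE7B-AS1, HECW2-AS1, NEXN-AS1, DLGAP1-AS1, PAX8-AS1, STARD4-AS1, HK2-DT and DNAJC3-DT. For CADM1-AS1 it was lost without EMD37 library A (adjusted p 0.0521) or vehicle library B (0.0547) of 12 h. GAS6-DT lost it without either EMD37 library of 12 h, vehicle library A of 12 h or EMD37 library A of 24 h (0.0897, 0.0664, 0.0785 and 0.102), and MNX1-AS1 without EMD37 library B or vehicle library A of 12 h or EMD37 library B of 24 h (0.0786, 0.0535 and 0.0827). LCT-AS1 lost it without EMD37 library B or vehicle library B of 12 h or EMD37 library A of 24 h (0.194, 0.105 and 0.201), and SERTAD4-AS1 without EMD37 library A, vehicle library A or vehicle library B of 12 h or EMD37 library A of 24 h (0.153, 0.0535, 0.0534 and 0.113). PRMT5-DT lost it without EMD37 library B, vehicle library A or vehicle library B of 12 h or EMD37 library B of 24 h (0.129, 0.0588, 0.0659 and 0.145), and WAC-AS1 without EMD37 library A or vehicle library A of 12 h or EMD37 library B of 24 h (0.0873, 0.0750 and 0.117). The cause was not tested in any of them.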

How the results depend on the processing

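No called change of a named member reversed its direction in any alternative run. Changes that were not called, such as 0.01 ± 0.08 for FGD5-AS1 at 24 h, are not covered by this. Counts of members below are higher then lower calls, in the order 12 h, 24 h, interaction and vehicle over time, with 21 and 12, 88 and 116, 31 and 36, and 19 and 7 in the main analysis. DESeq2 called 13 members higher at 12 h, 58 and 73 at 24 h, 17 and 17 in the interaction and 7 and 2 in vehicle over time, with 6 pairs in the same direction at 12 h and 54 in the same and 6 in opposite directions at 24 h. The count table alone, which holds 275 of the members, gave 4 and 4, 42 and 61, 17 and 14, and 10 and 3, with 2 same-direction pairs at 12 h and 50 and 7 pairs at 24 h. With only the libraries of a comparison in the fit, 34 and 25 were called at 12 h and 1 and 0 in vehicle over time, with 24 and 2 pairs at 12 h and 8 opposite pairs at 24 h. Without a filter on low counts 9 pairs were opposite at 24 h. A limit on the mean of 10 gave 831 members and of 50 gave 274, with 51 higher at 24 h. Pairs of members with no exonic base in another gene's exons numbered 5 in the same direction at 12 h, and 35 and 5 at 24 h. The cause of these shifts was not tested, except that fewer members or pairs enter where the table, the limit or the overlap leaves some out.

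Leaving out 1 library gave 9 to 34 higher and 2 to 25 lower members at 12 h, 56 to 88 and 74 to 114 at 24 h, 13 to 33 and 15 to 47 in the interaction, and 1 to 34 and 1 to 14 in vehicle over time. Pairs then numbered 3 to 22 in the same and 0 to 1 in opposite directions at 12 h, and 56 to 94 and 5 to 12 at 24 h. These fits were read for members, and those of coding genes are not given singly; a group left with 1 library is assumed to vary like the others. With the letters as a replicate block, 20 and 10, 89 and 115, 28 and 34, and 13 and 6 members were called, but the letters are not stated to pair the libraries, and A minus B was alike between the 2 vehicle groups (correlation 0.58) and in no other pair of groups. A crossed replicate block, chosen after seeing the data, gave 26 and 16, 97 and 120, 33 and 41, and 36 and 13. Over the named members, 1691 values under alternatives kept direction and side of the threshold, 101 lost it and 23 gained it. At these depths a member of 20 normalized counts rests on few reads per library, and intervals cover counting and library spread alone.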
